A study of Mus musculus with 2 samples.

Results

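The genes Mir3057 to Mir3113 are a block of microRNA (miRNA) genes with consecutive registry numbers, named after deep sequencing of small RNA in mouse tissues. They were chosen by name alone, as the miRNA genes of GENCODE M21 whose symbol lies between Mir3057 and Mir3113. Mir3065 and genes in a window of the imprinted Dlk1-Dio3 domain on chromosome 12 were left out, which removed Mir3065 and Mir3072. The window covers only part of that domain. Mir3070a, Mir3070b and Mir3071 also lie in the domain and were kept. The batch then held 56 of the 2202 miRNA genes in the count tables. Levels were measured by microRNA sequencing of total RNA from hippocampus of male B6CASTF1/J mice aged 18 to 20 months. These mice are F1 hybrids of C57BL/6 and CAST/Ei strains, and the labels name no treatment or engineered allele. Both libraries, replicate 1 and replicate 2, belong to 1 group, so no condition was compared. The labels number them as biological replicates, list separate tissue samples with the numbers of different males, and give both the same donor entry. They do not say outright that the animals differed, so a difference between these samples may be technical. The binomial p-values below hold counting error only and do not measure the spread between animals.

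A miRNA is a short RNA cut from a hairpin, and it lowers the stability or translation of messenger RNAs that pair with its seed, bases 2 to 8. Most hairpins are cut from longer transcripts by the nuclease Drosha and then by Dicer. Mirtrons are hairpins released by splicing of a short intron, without Drosha, and in tailed forms only 1 end of the hairpin lies at a splice site. Each hairpin can give a 5p and a 3p product from its arms. The tables count reads per hairpin gene, so the levels below are the sum over a gene's products. A read spans a whole product, so counts were not divided by gene length.

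The sense strand of miRNA genes held 3758318 counts in replicate 1 and 5598792 in replicate 2, so replicate 2 gives the smaller counting error. Marker miRNAs of neurons were detected in 10 of 14 cases, with sums of 51391 and 52874 counts per 1000000 sense counts (CPM) in replicates 1 and 2. Of the neuron markers 1 was at 0, and 12 have a stretch of 20 nt or more in common with some other hairpin. The liver marker Mir122 had 23.9 and 47.5 CPM. Of 5 muscle markers 4 were at 0, and 4 of the 5 share sequence in the same way. The detected one, Mir206, had 196 and 446 counts, and the muscle markers summed to 52.2 and 79.7 CPM. Reads that mapped to several places, 51.5% and 46.7% of all reads, enter no gene. The libraries were not 1 library deposited under separate entries, since their counts over detected genes differed by more than sampling noise (chi-square 243102 on 383 degrees of freedom). In whole tissue, fewer cells of a type and less RNA per cell cannot be told apart.

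RefSeq (GRCm38.p6, the mm10 build) held mature sequences for 52 of the 56 genes, and none is shown for Mir3078, Mir3079, Mir3106 and Mir3107. The products of the 4 most abundant genes are shown first because these genes carry most of the batch's reads. All sequences run 5′ to 3′ with the seed in capitals.
miR-3102-5p: gUGAGUGGccaggguggggcug
miR-3102-5p.2-5p: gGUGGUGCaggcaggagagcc
miR-3102-3p.2-3p: cUCUACUCccugccccagcca
miR-3102-3p: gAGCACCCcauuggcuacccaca
miR-3099-5p: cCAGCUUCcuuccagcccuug
miR-3099-3p: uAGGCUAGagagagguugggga
miR-3068-5p: uUGGAGUUcaugcaaguucuaacc
miR-3068-3p: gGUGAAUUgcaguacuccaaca
miR-3059-5p: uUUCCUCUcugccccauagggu
miR-3059-3p: cCUCUAGGgaagagaagguugg

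Of the 56 genes, 22 (39.3%) were detected, that is, had at least 10 sense counts in both libraries. Over all 2202 miRNA genes the share detected was 17.4%. A further 20 members had some counts and 14 (25%) had none in either library, against 65.8% of all miRNA genes without a count. Both background shares depend on 1039 genes whose symbol is not Mir plus a number. Of those 1039, 21 (2.02%) were detected and 93.4% had no count. They lower the overall share detected and raise the overall share without a count. The shares among genes with numbered symbols are given by bin below. The batch summed to 943 CPM in replicate 1 (3545 counts, 0.0943% of the library, Wilson 95% interval 0.0913 to 0.0975%) and to 1753 CPM in replicate 2 (9814 counts, 0.175%, interval 0.172 to 0.179%). Only counting error enters these intervals, as PCR copies cannot be told from separate molecules here. The mean was 1348 ± 572 CPM (SD, n = 2). Markers of other cell types also differed between the libraries. From replicate 1 to replicate 2, the sums were 6090 and 9705 CPM for oligodendrocytes (2 of 2 markers detected), 816 and 1110 CPM for choroid plexus and ependyma (2 of 3) and 63.3 and 95.7 CPM for red cells (3 of 3). They were 22045 and 16510 CPM for vessels (3 of 3) and 812 and 762 CPM for leukocytes and microglia (3 of 3). None of these markers was at 0, and their part in the batch's difference was not tested. The detected members were low among detected genes. Their median was 12.2 CPM against 102 CPM for all 384 detected miRNA genes, and 19 of the 22 lay below that overall median.

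Mir3102 was the most abundant gene of the batch. It had 1219 counts (324 CPM) in replicate 1 and 5471 counts (977 CPM) in replicate 2, or 651 ± 462 CPM (SD, n = 2), and ranked 107th of all miRNA genes. It made up 34.4% and 55.7% of the batch's reads in the respective libraries. Without it, an alternative added after seeing the data, the batch summed to 697 ± 111 CPM. Mir3102 (ENSMUSG00000093296.1) lies on the minus strand of chromosome 7 from 100882306 to 100882409, in the gene Arhgef17. Its 104-nt hairpin begins and ends exactly with a 104-nt intron of Arhgef17, the layout of a mirtron. Another Arhgef17 transcript without a coding frame keeps this stretch as an exon.

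RefSeq lists 4 products for Mir3102, an outer and an inner pair, shown above in their order along the hairpin. The outer miR-3102-5p starts at the first base of the intron and the inner miR-3102-5p.2-5p starts 22 nt into it, directly after the outer product. On the other arm, the inner miR-3102-3p.2-3p starts 59 nt into the intron and the outer miR-3102-3p 80 nt into it, ending 1 nt before the intron does. The counts are per gene, so they do not say how reads divide between these products. The seed of miR-3102-5p, UGAGUGG, is also that of miR-702-5p in the same table, and the gene Mir702 had 76.6 and 213 CPM, again lower in replicate 1.

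**Figure D1:**
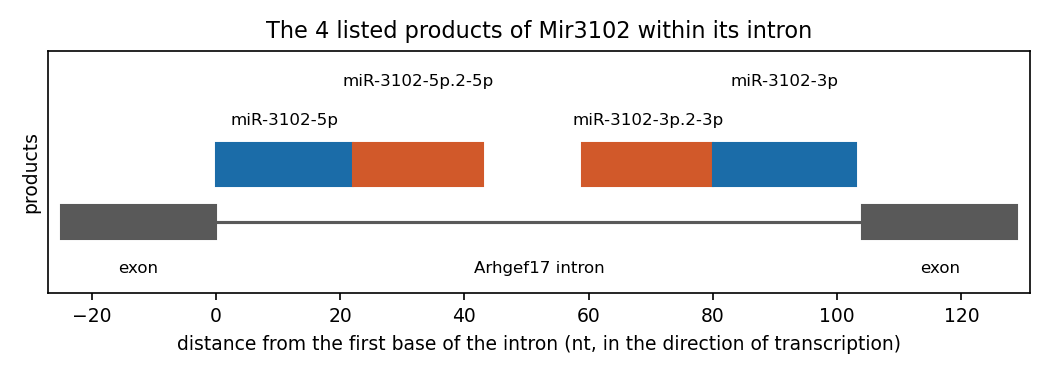
Positions of the 4 listed products of Mir3102 (bars) along the Arhgef17 intron (line), as distance in nt from its first base in the direction of transcription, with the outer pair in blue and the inner pair in orange. The grey boxes mark where the exons begin and are not drawn to their full length; the outer pair starts at the first base of the intron and stops 1 nt before its end.

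Mir3099 followed, a gene described in the developing mouse brain. It had 1073 counts (286 CPM) in replicate 1 and 1694 counts (303 CPM) in replicate 2, or 294 ± 12.1 CPM, with nearly the same CPM in both. It lies on the plus strand of chromosome 7 from 6803587 to 6803670 (ENSMUSG00000092815.1), within a 169340-nt intron of Usp29. Usp29 encodes a deubiquitinase of an imprinted domain, expressed from the paternal allele. The tables do not separate the alleles of the hybrid.

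Mir3068 had 339 counts (90.2 CPM) in replicate 1 and 845 counts (151 CPM) in replicate 2, or 121 ± 42.9 CPM. It lies on the minus strand of chromosome 12 from 87437679 to 87437757 (ENSMUSG00000105428.1), in an intron of Alkbh1, which encodes a nucleic acid demethylase, and in a non-coding exon of Gm29362. The annotation also holds a small nucleolar RNA (snoRNA) gene under the symbol Mir3068 that overlaps it on the same strand. Reads from such an RNA in this window cannot be told apart from miRNA reads in the tables.

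Mir3059 had 175 counts (46.6 CPM) and 449 counts (80.2 CPM), or 63.4 ± 23.8 CPM. It lies on the plus strand of chromosome 10 from 101772692 to 101772772 (ENSMUSG00000092952.1), in a 182041-nt intron of Mgat4c, a glycosyltransferase gene. The levels of Mir3068 and Mir3059 were lower in replicate 1 than in replicate 2, as for Mir3102. Together with Mir3099, these genes were the only members above 50 CPM in the mean, and 3 of them exceeded 100 CPM.

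Next came Mir3093, which sits beside a brain miRNA. It had 94 counts (25.01 CPM) and 216 counts (38.6 CPM), or 31.8 ± 9.59 CPM, and lies on the plus strand of chromosome 3 from 88215171 to 88215257 (ENSMUSG00000092988.1), in an intron of the non-coding gene Gm3764. Mir9-1, a gene of the neural miRNA miR-9, starts 341 nt after its end in the same direction. Mir9-1 had 82 and 42 counts (14.7 ± 10.1 CPM), so its counts were lower in replicate 2 while those of Mir3093 were higher. Mir9-1 shares 33 nt with another hairpin, and reads that fit both are not counted.

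Mir3083 (ENSMUSG00000093118.1) had 100 counts (26.6 CPM) and 97 counts (17.3 CPM), or 22.0 ± 6.56 CPM, and was thus higher in replicate 1 in CPM. Mir3086 had 59 counts (15.7 CPM) and 146 counts (26.1 CPM), or 20.9 ± 7.34 CPM. It lies on the minus strand of chromosome 19 from 58911673 to 58911759 (ENSMUSG00000092813.1), in an intron of Hspa12a, a gene of the HSP70 chaperone family.

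Mir3057 (plus strand of chromosome 10, 81271597 to 81271687, ENSMUSG00000092781.1) overlaps coding sequence of Apba3 in part. Apba3 is an adaptor protein gene whose family binds the amyloid precursor protein. The 5p product of Mir3057 lies in an annotated intron of Apba3, ending 28 nt before the intron does. Its 3p product runs past that intron's end. Mir3057 had 39 counts (10.4 CPM) and 109 counts (19.5 CPM), or 14.9 ± 6.43 CPM. Mir3061 lies in an exon of Ppp2ca annotated as untranslated region, on the plus strand of chromosome 11 from 52126746 to 52126836 (ENSMUSG00000092870.1). Ppp2ca encodes the catalytic subunit of protein phosphatase 2A. Mir3061 had 52 counts (13.8 CPM) and 68 counts (12.1 CPM), or 13.0 ± 1.195 CPM, close together in CPM.

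**Figure D2:**
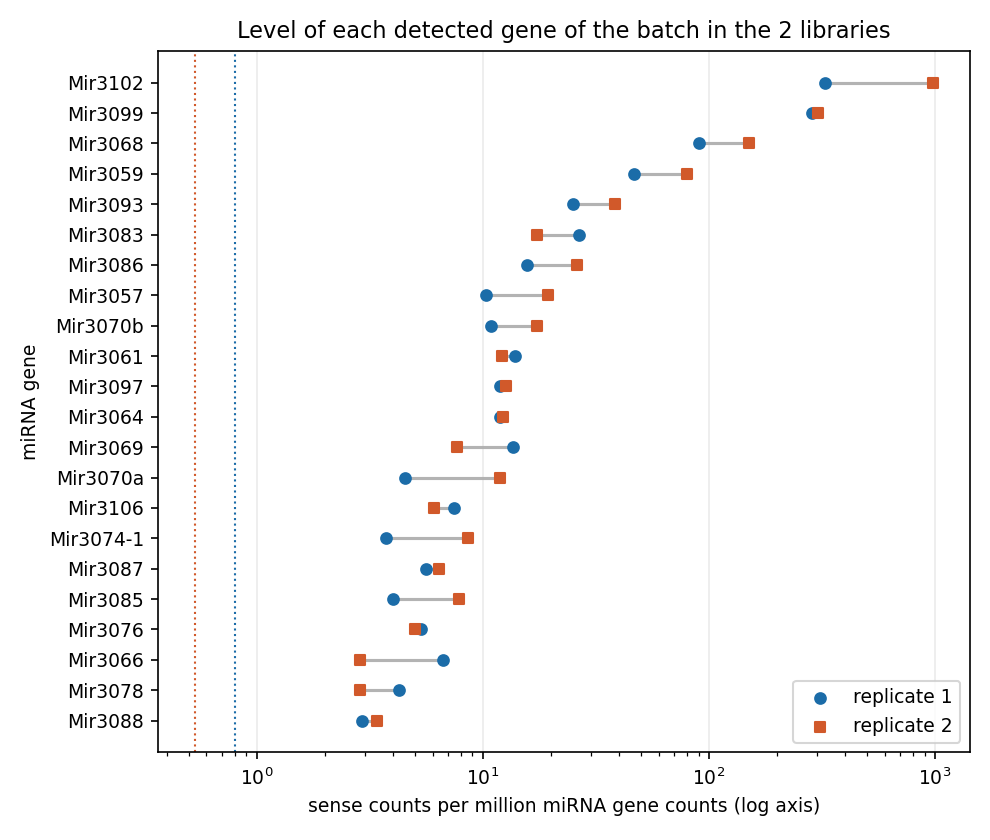
Sense CPM (log axis) of the 22 detected genes of the batch, 1 row per gene, with replicate 1 as circles and replicate 2 as squares and dotted lines at the level of 3 counts in each library (0.798 and 0.536 CPM). Mir3102, Mir3099 and Mir3068 stand above 100 CPM in the mean, and Mir3102 shows the widest gap in CPM, from 324 to 977.

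Mir3070a and Mir3070b are near-copies that form a cluster in the imprinted Dlk1-Dio3 domain. They lie outside the left-out window on chromosome 12, at 109587943 to 109588031 (ENSMUSG00000095147.1) and 109588592 to 109588680 (ENSMUSG00000094952.1), both on the plus strand and outside annotated host genes. They are 89 nt long each, identical at 84 aligned positions, and share an unbroken stretch of 43 nt. Their 5p product is the same and their 3p products share a seed.
miR-3070-5p (both genes): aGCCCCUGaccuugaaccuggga
miR-3070-3p (Mir3070a): uGGUGCUAccgucagggguaga
miR-3070-2-3p (Mir3070b): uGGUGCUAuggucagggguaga
Mir3070b had 41 counts (10.9 CPM) and 97 counts (17.3 CPM), or 14.1 ± 4.54 CPM. Mir3070a had 17 counts (4.52 CPM) and 67 counts (11.97 CPM), or 8.25 ± 5.26 CPM. A 5p read fits both genes and is counted for neither, so these are not tissue levels. Both were lower in replicate 1.

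The other detected members had between 3.16 and 12.3 CPM. Mir3097 (45 and 71 counts in replicates 1 and 2) lies in an intron of Rgs12, a regulator of G protein signalling. Mir3064 (45 and 69 counts) lies in Ddx5, which encodes an RNA helicase that assists Drosha. Mir3069 (51 and 43 counts) lies within Scarna13, a small Cajal body RNA gene in the host Snhg10, so reads of that RNA cannot be told apart from miRNA reads. Mir3106 (28 and 34 counts) lies in an intron of Csmd1, a gene of a complement regulator. Mir3085 (15 and 44 counts) has no annotated host. Mir3087 (21 and 36 counts) lies in an intron of the lipid transporter gene Abca2, and Mir3076 (20 and 28 counts) overlaps coding sequence of the transketolase gene Tkt. The listed product of Mir3076, however, lies in an intron of Tkt and ends with its last base. Mir3066 (25 and 16 counts) and Mir3088 (11 and 19 counts) lie in introns of Nol10 and Ak8. Mir3078 (16 and 16 counts) lies in an exon of Mir124a-1hg, the host transcript of a copy of the neuronal miR-124. It starts 444 nt after the end of Mir124a-1, which had 2 and 5 counts and shares its mature sequence with other copies.

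By their lower count, Mir3088 (11), Mir3074-1 (14) and Mir3085 (15) were just inside the limit of 10 counts. Just outside were Mir3080 (8 and 23 counts, in Tcf20), Mir3058 (9 and 12 counts, in Nudt4) and Mir3082 (6 and 14 counts, in Stub1). Mir3060, in Rnf215, had no count in replicate 1 and 19 in replicate 2, and was singled out after its values were seen. Replicate 2 alone had 27 members with at least 10 counts and replicate 1 had 22. For a member without counts, the upper limit is 3 counts, or 0.798 CPM in replicate 1 and 0.536 CPM in replicate 2, provided that its reads are unique in the genome. The 3 members on the X chromosome, Mir3110, Mir3112 and Mir3113, had no count.

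The detected share of the batch was below that of the lowest registry numbers and above those of the higher bins and of Mir1000 to Mir2999, while its median level lay between those of the lower and the higher numbers. Registry numbers broadly follow the order of entry into the registry. Of genes from Mir1 to Mir999, 266 of 514 (51.8%) were detected, and of those from Mir1000 to Mir2999, 24 of 90 (26.7%). Above the batch, the shares were 8 of 51 (15.7%) for Mir5000 to Mir5999, 16 of 207 (7.73%) for Mir6000 to Mir6999 and 22 of 212 (10.4%) from Mir7000 on. The other 31 genes from Mir3000 to Mir4999 had 4 detected (12.9%). Median levels of detected genes were 232 CPM for Mir1 to Mir999, 24.03 CPM for Mir1000 to Mir2999 and 12.2 CPM for the batch. They were 9.87 CPM for the rest of Mir3000 to Mir4999 and 5.72 to 7.97 CPM in the higher bins. These shares are descriptions without a test. The bins also differ in sequence shared with other hairpins. A stretch of 20 nt or more was shared by 16.1% of the batch, 39.7% of Mir1 to Mir999 and 3.38% of Mir6000 to Mir6999. The part of this in the detected shares was not tested.

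**Figure D3:**
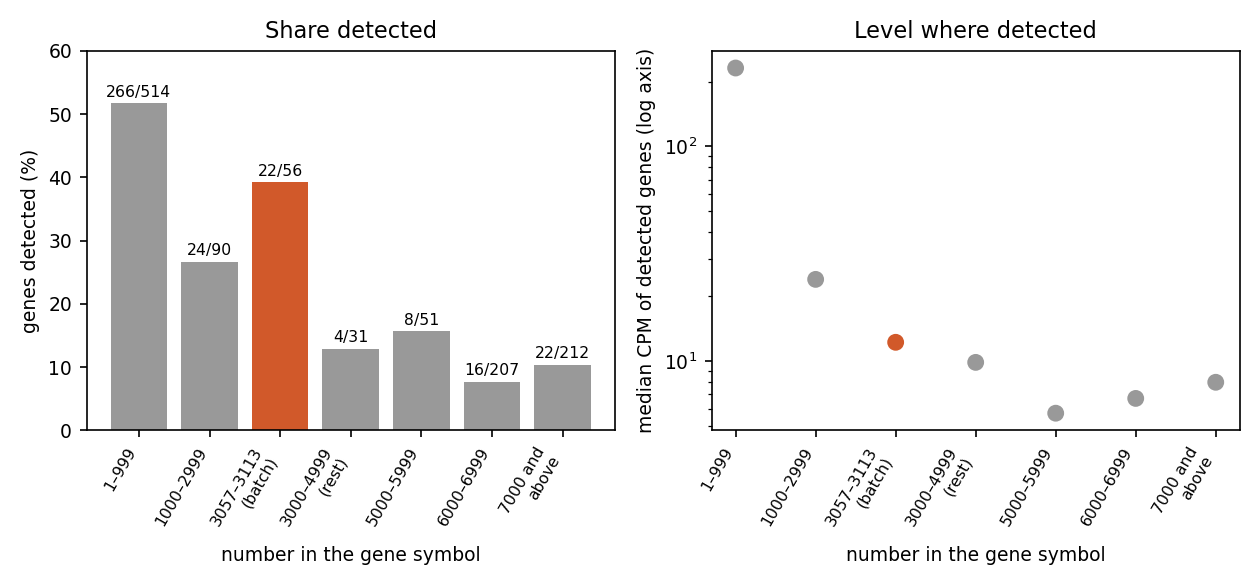
Share of miRNA genes detected (left, in %, with detected and total genes above each bar) and median CPM of the detected genes (right, log axis) by the number in the gene symbol, with the batch in orange. The batch has 22 of 56 genes detected (39.3%), below the 51.8% for Mir1 to Mir999 and above every other bin. Those run from 26.7% for Mir1000 to Mir2999 down to 7.73% for Mir6000 to Mir6999, with 12.9% for the rest of Mir3000 to Mir4999.

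Several members lie at splice sites. In 11 of the 52 genes with a mature sequence, a 3p product ended within 2 nt of the end of an annotated host intron. These were Mir3064, Mir3076, Mir3077, Mir3082, Mir3087, Mir3094, Mir3097, Mir3100, Mir3102, Mir3103 and Mir3104. In Mir3102 alone a 5p product also started at the intron's beginning. In the other 10 only 1 end lies at a splice site, as in tailed mirtrons. Their introns are not all short, with 82 nt for Mir3087 and 1875 nt for Mir3094. Release by splicing was not tested. The 3p products of the detected genes among them, other than Mir3102, are shown because they end at or 1 nt before the intron's last base.
miR-3064-3p (Ddx5): uGCCACACugcaacaccuuaca
miR-3076-3p (Tkt): cGCACUCUggucuucccuugcag
miR-3087-3p (Abca2): uAACUCACugucauguccuca
miR-3097-3p (Rgs12): cUCAGACCuuucuaccugucag
Of these 11 genes, 5 were detected, and of the other 41 with a mature sequence, 15 were. Over all miRNA genes with a mature sequence, 35 of 206 at such an intron end were detected and 308 of the other 812. Together the 11 made up 364 CPM of replicate 1 and 1022 CPM of replicate 2, most of it from Mir3102. The share at intron ends, 21.2% of the batch, was close to the 20.2% (206 of 1018) over all miRNA genes with a mature sequence. It was 1.22% (5 of 409) for Mir1 to Mir999 and 89.2% (165 of 185) for Mir6896 to Mir7094, of which 20 of 165 were detected.

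By annotation, 20 members overlapped an exon of a gene on their strand, 26 lay only in introns, 4 only on the strand opposite to a gene, and 6 outside genes. Of these groups, 8, 10, 1 and 3 genes were detected. All miRNA genes were not grouped in this way, so these counts have no background share. The exonic members summed to 478 and 1196 CPM in replicates 1 and 2, and the intronic ones to 419 and 502 CPM. Mir3102 alone gave 324 and 977 CPM of the exonic sums. The median level was 1.31 CPM among exonic and 1.36 CPM among intronic members. Any overlap with an exon, however short, counts here. Mir3064, Mir3076, Mir3077, Mir3082, Mir3103 and Mir3104 are thus exonic, although a 3p product of each ends within 2 nt of an intron's end. Mir3102 counts as exonic here because of the transcript that retains its intron. Mir3069 and Mir3084-1 are exonic only through the small RNA genes Scarna13 and Gm23658, and otherwise lie in introns of Snhg10 and Cbwd1. Hairpin length, 56 to 105 nt, had a median of 83.5 nt among both detected and other members. Median GC content was 52.9% among detected and 55.1% among other members.

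The batch does not form seed families. The 99 distinct mature sequences of the batch held 96 distinct seeds. Mir3064 and Mir3085, on chromosomes 11 and 19, each have a product with the seed CUGGCUG, which is the reason for showing this pair.
miR-3064-5p: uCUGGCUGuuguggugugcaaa
miR-3085-3p: uCUGGCUGcuauggcccccuc
Mir3064 had 11.97 and 12.3 CPM, and Mir3085 had 3.99 and 7.86 CPM. The level of Mir3064 was thus nearly the same in both libraries, and that of Mir3085 was lower in replicate 1. Other seeds shared within the batch were those of near-copies (Mir3070a with Mir3070b, Mir3074-1 with Mir3074-2) and of the opposed genes Mir3073a and Mir3073b, which had no counts.

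In 6 members another miRNA gene is annotated on the other strand. Mir3074-1 faces Mir24-1, Mir3074-2 faces Mir24-2, Mir3107 faces Mir486, Mir3071 faces Mir136, and Mir3073a and Mir3073b face each other. Mir3074-1 was the sole detected gene of the 6. It had 14 counts (3.73 CPM) and 48 counts (8.57 CPM) on its own strand, where it lies on the minus strand of chromosome 13 from 63301199 to 63301283 (ENSMUSG00000092741.2) in an intron of the DNA repair gene Fancc. Mir24-1 on the other strand, which encodes the broadly expressed miR-24, had 84 and 141 counts. Mir3074-2 had no count, against 123 and 466 for Mir24-2. The mature sequences of this pair are shown because they overlap by 20 of 22 nt on opposite strands.
miR-3074-5p: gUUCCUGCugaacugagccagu
miR-24-3p: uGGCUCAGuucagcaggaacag
Each is the same in both copies of its gene, so such reads fit 2 places and are not in these counts.

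Mir3107 had 5 and 4 counts against 41 and 105 for Mir486, a red cell and muscle miRNA whose hairpin shares 22 nt with that of Mir3107. A read that lies within this stretch fits both genes and is counted for neither, so these counts do not compare the levels of the strands. Mir3071, in coding sequence of the imprinted gene Rtl1, had no count, against 556 and 1628 for Mir136. Both lie in the imprinted Dlk1-Dio3 domain. In each of the 6 the opposite-strand count equalled the sense count of the facing gene in both libraries. The opposite-strand reads over these genes are thus the facing gene's own reads. Counts without strand set both genes of a pair to 0, because their reads are then ambiguous, and Mir3074-1 drops out of the detected genes. For 51 of the 56 members the unstranded and sense counts were the same in both libraries.

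**Figure D4:**
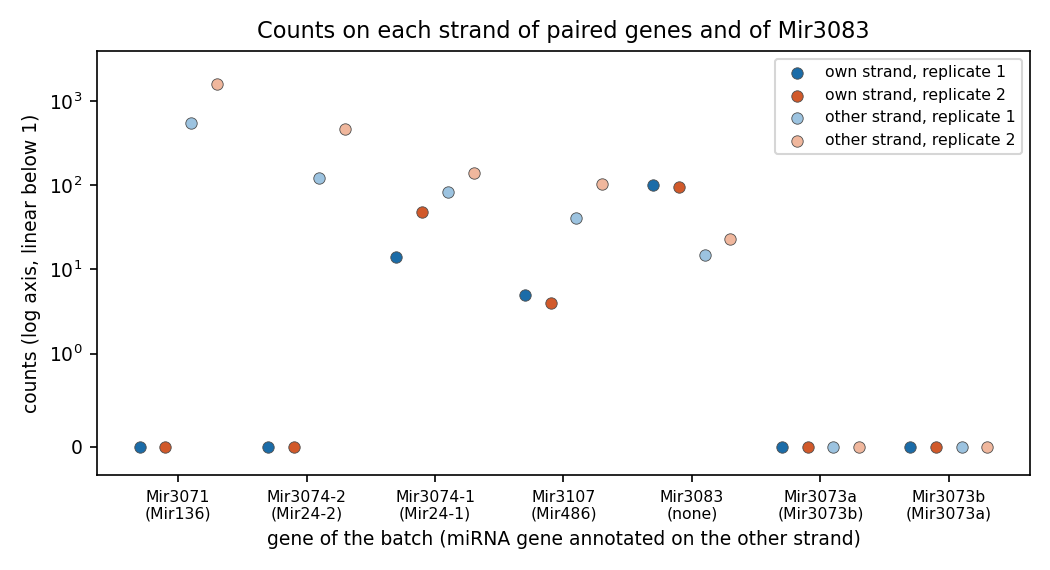
Counts on the gene's own strand (dark points) and on the other strand (pale points) in both libraries, on a log axis that is linear below 1, for the 6 members that face another miRNA gene and for Mir3083. Mir3071 and Mir3074-2 have no count of their own beside 556 and 1628, and 123 and 466, on the other strand, while Mir3083 has 100 and 97 of its own.

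The libraries were compared gene by gene with an exact binomial test, two-sided, on counts scaled by the trimmed mean of M-values (TMM), with Benjamini-Hochberg adjustment over all 384 detected genes. It compares these libraries, not conditions, and it holds counting error only. It called 9 of the 22 detected members, against 65.1% of all detected genes. Of the 9, 4 were higher in replicate 1 and 5 in replicate 2, where the backgrounds were 34.1% and 31.0%. On this scale, CPM of replicate 2 are divided by a further factor of 1.25 relative to replicate 1.

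Mir3102 was 2.42-fold higher in replicate 2 (adjusted p = 8.88e-202), Mir3070a 2.12-fold (adjusted p = 0.00686), Mir3057 1.51-fold (adjusted p = 0.0476), Mir3059 1.38-fold (adjusted p = 0.000415) and Mir3068 1.34-fold (adjusted p = 6.84e-06) by the binomial test. Mir3066 was 2.90-fold higher in replicate 1 (adjusted p = 0.00152), Mir3069 2.20-fold (adjusted p = 0.000375) and Mir3083 1.91-fold (adjusted p = 1.35e-05). Mir3099 was 1.18-fold higher in replicate 1 (adjusted p = 8.03e-05), but scaling by total counts put it higher in replicate 2 by 0.08 on the log2 scale. The call of Mir3057 was lost with a detection limit of 5 counts (adjusted p = 0.0535) and without a limit (adjusted p = 0.0696). The median size of the difference was 1.40-fold for the members and 1.36-fold for all detected genes. By total counts, which raise the median log2 ratio of all detected genes from -0.01 to 0.31, 13 of the 22 members were called, against 70.6% of all detected genes. Of the 22, 10 were called higher in replicate 2 by total counts, against 50.8% of all detected genes.

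The spread between these libraries over all detected genes was also estimated. The edgeR common dispersion over detected genes gave a biological coefficient of variation of 34.4%. An edgeR exact test with that dispersion called 0 of the 22 members (0 at an unadjusted p under 0.05) and 2 of all 384 genes (0.521%). The dispersion came from the same pair of libraries that the test compares, so few genes could pass, and the ratios themselves are those given above.

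**Figure D5:**
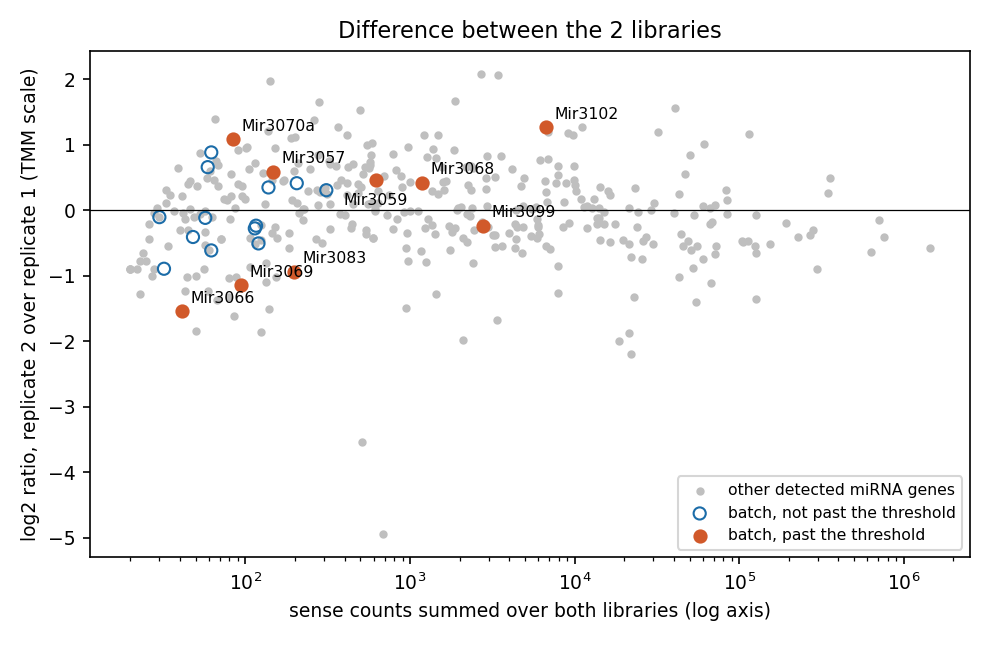
Log2 ratio of replicate 2 over replicate 1 on the TMM scale against the summed sense counts (log axis), 1 point per detected miRNA gene, with batch genes past the binomial threshold in orange and the others as open circles. The 9 called members spread to both sides of 0, 5 above and 4 below, among the other detected genes in grey.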

How the data were processed

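Each table deposited by the authors holds whole-number counts of reads for every miRNA gene, unnormalized, on mm10 per the labels. How reads were aligned and counted is not given in the sources used here. The strand column with more counts was used as sense (opposite-strand totals 287729 and 425273). Summary lines stayed out of library sizes: unmapped reads were 9.53% and 14.4%, and reads outside features 3.47% and 4.24%. CPM are per 1000000 sense counts over all miRNA genes. Symbols, positions and hosts came from GENCODE M21, which named all 2202 identifiers. A stretch of at least 20 nt shared with another hairpin was taken as shared sequence. TMM came from edgeR 4.0.16 in R 4.3.3, size factors from DESeq2 1.42.0, Wilson intervals from scipy 1.17.1. Members and lists were chosen with earlier results of these data known. Every detected member is named, the 10 most abundant in full, with members near the detection limit and those facing another miRNA gene. Alternatives were unstranded counts, other detection limits, other scalings, another test, another denominator, single libraries, and members left out for shared sequence, an opposite gene or, added after seeing the data, Mir3102. The genomic position of Mir3083 is not reported here.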

Additional observations from a re-analysis of the deposited data

Results flagged for a closer look

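Mir3083 had 15 opposite-strand counts in replicate 1 and 23 in replicate 2, in a column that the comparisons above do not use, beside 100 and 97 on its own strand. It drew attention because both values lie above the 3 counts that a count of 0 allows, and GENCODE M21 lists no miRNA gene on its other strand. RefSeq lists Gm51291, with the synonym Mir3083b, within the same interval. The hairpin of Mir3083 equals its own reverse complement at 58 of 64 positions (90.6%), the highest share among the 56 members, whose median was 35.6%. Whether this likeness bears on the opposite-strand counts was not tested. Of the other members without a facing miRNA gene, Mir3076 had 0 and 3 opposite-strand counts and Mir3105 had 0 and 1, in replicates 1 and 2.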

How the results depend on the processing

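The number of detected members stayed between 19 and 27 in 6 of 7 alternatives and was 8 with a limit of 50 counts. With 1 library left out it was 22 or 27. The summed level ranged from 943 to 1753 CPM with 1 library left out, was 3107 CPM when the 10 most abundant genes left the denominator, and 697 CPM without Mir3102. The number of called members was 5 with a limit of 50 counts, which keeps 8 members, and 0 by the edgeR exact test with the common dispersion, where the 9 calls were lost. It was 8 to 13 in the other alternatives. Scaling by total counts turned 5 log2 ratios from below to above 0, those of Mir3099 (0.0838), Mir3097 (0.0829), Mir3064 (0.0416), Mir3087 (0.20) and Mir3088 (0.21), as that scaling shifts every ratio. No paired analysis was possible because there is only 1 group. Depth limits the low members: those with 10 to 50 counts have wide counting error.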
